A study of Mus musculus with 6 samples.

Results

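FGF4, the FGF receptors Fgfr1 and Fgfr2, the transcription factors Etv4, Etv5 and Egr1 and the feedback inhibitors Spry2, Spry4, Spred1 and Dusp6 were followed in mouse induced pluripotent stem cells (iPSCs) with and without a Cas9 edit of Tet1, the gene of an enzyme that oxidises 5-methylcytosine. These 10 genes are a list of names from a single signalling pathway, drawn up with earlier results of these data known, so their values are not free of that choice. All 10 had a row in the table of 48440 genes, and all 10 were among the 14664 genes with enough reads to be tested. The series compared 3 Tet1 knockout clones with 3 non-targeted clones by sequencing of polyadenylated RNA, 1 library per clone.

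All clones were male, with a strain label that joins B6- Tet1tm1Kohx and B6;CBA-Tg(Pou5f1-EGFP)2Mnn/J, and carried 1 copy of the Pou5f1-EGFP reporter (genotype wt/wt;GFP/wt). The knockout clones 14, 30 and 33 (replicates 1 to 3) are labelled mut/mut for the Cas9 edit of Tet1. The non-targeted clones 49, 51 and 52 (replicates 1 to 3) carry no such label. The iPSCs spent 14 passages in KSR medium and then received Cas9 ribonucleoprotein with a guide to Tet1 and a donor oligonucleotide, and 12 h of an enhancer of homology-directed repair. Picked colonies grew for 4 more passages and were expanded on fibroblast feeders, which were taken away before extraction. The labels give this text for both groups and do not say whether the non-targeted clones met the guide. Every library stands for 1 clone, and all clones share a parental line, so the p-values speak only of clone-to-clone spread.

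FGF4 is the main FGF made by mouse pluripotent stem cells, and it acts on the cells that secrete it. It binds FGF receptors with heparan sulfate as a coreceptor, and the receptors signal through RAS, RAF and MEK to the kinase ERK. ERK signalling moves these cells out of the naive state and is needed for them to become primitive endoderm or to differentiate. Active ERK induces transcription factors such as Egr1, Etv4 and Etv5, and also its own inhibitors: Sprouty and Spred proteins act at the level of RAS and RAF, and Dusp6 removes the activating phosphates from ERK.

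The libraries held between 11937909 and 16189554 counted reads, and each of the 10 genes had at least 1193 reads in every library. Tet1 itself stood at 365, 231 and 288 CPM (counts scaled to a common library size) in the knockout clones and at 966 to 1158 CPM among the non-targeted. Pou5f1, which defines pluripotent cells, had 675 to 692 CPM over the knockouts and 744 to 849 CPM among the non-targeted. The Sox2 row holds 0 reads throughout: the gene sits inside Sox2ot on its own strand, and the deposited counting assigns such reads to neither gene. Of 29 tested fibroblast markers, 27 were higher on average in the knockout, with medians of 0.61, 0.70 and 1.90 on the log2 scale above the non-targeted mean in knockout replicates 1 to 3. The same medians were -0.51, 0.31 and 0.21 for the non-targeted clones, each against the other 2. Their summed level was 2765, 2368 and 3523 CPM over knockout replicates 1 to 3 and 2271 to 2625 CPM among the non-targeted. By this sum replicate 2 was the lowest knockout clone, where by the medians it was replicate 1. None of the defining collagens was at 0. Col1a1 had 39.4, 37.1 and 122.6 CPM over the knockouts and 18.8, 30.8 and 26.4 CPM among the non-targeted. Of 15 tested pluripotency markers, 14 were lower on average, with medians of -0.11, -0.34 and -0.53 for the knockouts and 0.16, -0.16 and 0.09 for the non-targeted clones, whose range holds knockout replicate 1. Bulk RNA cannot tell fewer cells of a type from less RNA per cell.

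The 250 bases before the RefSeq start site (GRCm38.p6) are printed for 4 of the 10 genes: the ligand, and the 3 inhibitors whose knockout clones all lay above the non-targeted ones. Promoters of 6 of the 10 genes were searched. Capitals mark the GC box GGGCGG, which binds factors of the Sp family, on either strand.
Fgf4, chr7:144861136-144861385, plus strand: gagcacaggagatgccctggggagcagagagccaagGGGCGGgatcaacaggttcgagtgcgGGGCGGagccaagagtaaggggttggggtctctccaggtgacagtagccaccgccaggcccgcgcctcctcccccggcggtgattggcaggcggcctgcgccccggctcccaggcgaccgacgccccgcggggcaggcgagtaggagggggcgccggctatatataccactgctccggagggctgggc
Spry2, chr14:105896820-105897069, minus strand: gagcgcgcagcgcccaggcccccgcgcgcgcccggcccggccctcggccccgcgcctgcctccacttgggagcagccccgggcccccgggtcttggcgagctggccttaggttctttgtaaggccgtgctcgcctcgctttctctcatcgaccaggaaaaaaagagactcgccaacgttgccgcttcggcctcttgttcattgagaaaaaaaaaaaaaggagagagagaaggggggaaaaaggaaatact
Spred1, chr2:117120821-117121070, plus strand: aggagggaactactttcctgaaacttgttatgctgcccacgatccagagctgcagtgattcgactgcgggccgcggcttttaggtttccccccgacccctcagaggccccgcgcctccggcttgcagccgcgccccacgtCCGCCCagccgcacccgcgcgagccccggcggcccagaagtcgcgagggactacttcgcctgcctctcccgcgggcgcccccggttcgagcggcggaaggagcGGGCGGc
Dusp6, chr10:99262981-99263230, plus strand: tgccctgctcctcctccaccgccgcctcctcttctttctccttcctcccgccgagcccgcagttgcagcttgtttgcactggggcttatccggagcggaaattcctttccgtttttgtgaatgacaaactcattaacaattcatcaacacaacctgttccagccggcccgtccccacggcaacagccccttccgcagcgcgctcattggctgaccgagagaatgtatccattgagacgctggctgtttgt

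The motifs, 3 in all, were searched on both strands in these windows, none overlapping another: the GC box GGGCGG, the ETS core CCGGAA and the CArG box bound by serum response factor. Fgf4 held 2 GC boxes, 214 and 188 bases before its start, Spred1 held 2, at 110 and 7 bases, and Spry2 and Dusp6 held none. A GC box is present in 32.74% of 32851 promoter windows of this length. No CCGGAA and no CArG box was found in the windows of the 6 genes searched, against 12.03% and 1.467% of all windows. This says only that these letters are not in these windows. The shorter ETS sequence GGAA was not searched. Egr1 and Spry4, both on chromosome 18, were left out of the search, and Fgfr1 and Etv4 had no window to search. The Fgf4 start site at 144861386 on chromosome 7 lies inside the longer gene body that was counted, so reads from an upstream transcript would be included in its row.

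The main test was the quasi-likelihood test of edgeR, adjusted over all genes by Benjamini-Hochberg, and DESeq2 was an alternative. Each log2 fold change is the knockout level minus the non-targeted one, from edgeR unless another tool is named, with its standard error (SE). At an adjusted p of 0.05 edgeR called 0 of 14664 genes (0%) and 0 of the 10 genes. The edited gene Tet1, with a log2 fold change of -1.84, was not called either (edgeR adjusted p = 0.0703), though DESeq2 called it (DESeq2 adjusted p = 9.43e-20). At an unadjusted p under 0.05, 5 of the 10 lay above 0 and 1 below, where 14% and 10.8% of all tested genes did. DESeq2 called 1 of the 10, Spred1, as higher and 0 as lower, where it called 5.5% of 14235 genes as higher and 3.15% as lower. In 4 of the 10 genes every knockout clone lay above every non-targeted clone, as in 14.8% of all tested genes, and in none did every knockout clone lie below, as in 14.7%. The median log2 fold change was 0.14 over the 10 genes and 0.0021 over all tested genes.

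**Figure D1:**
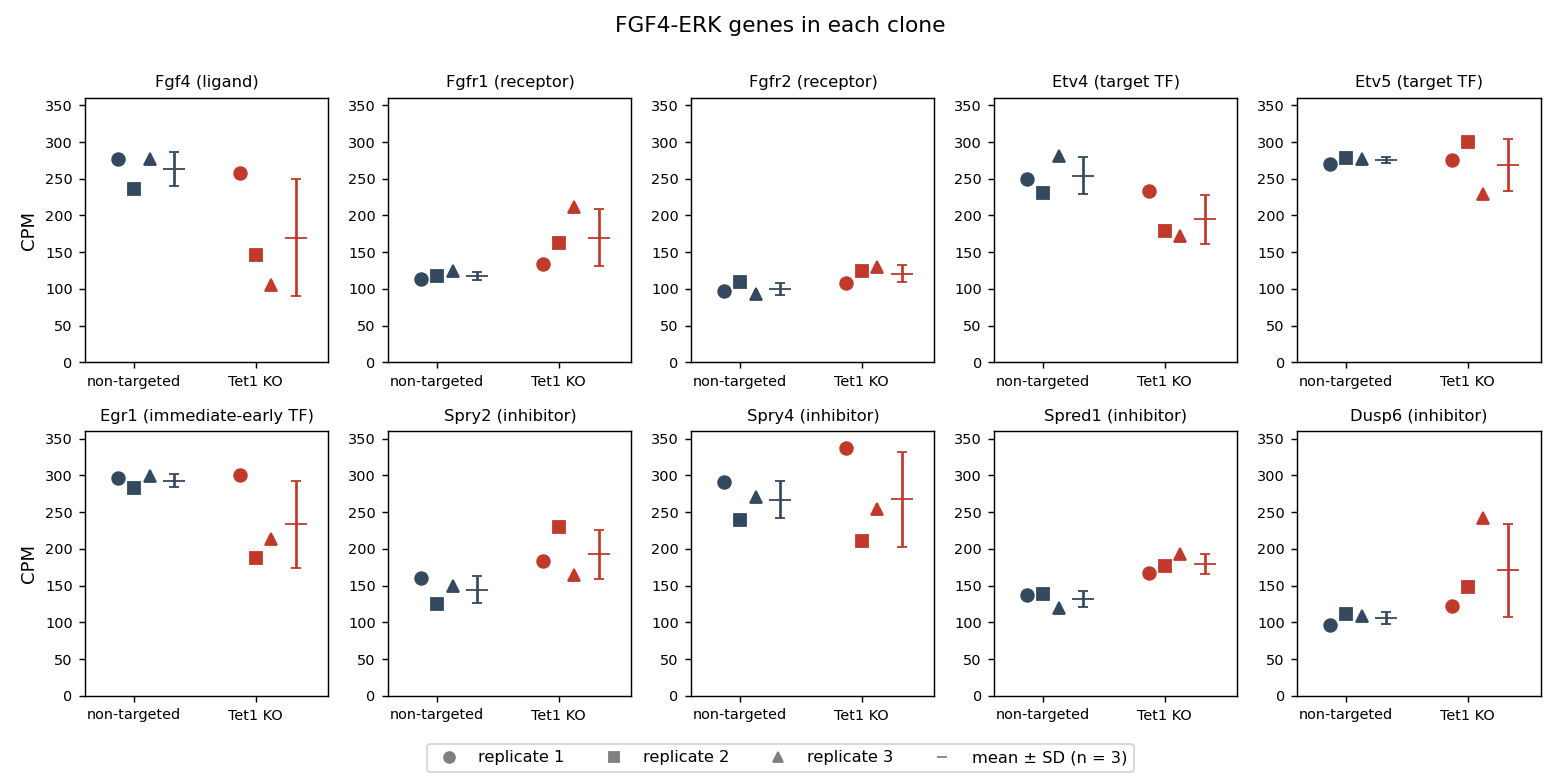
CPM of each of the 10 genes in the 3 non-targeted (dark) and 3 Tet1 knockout clones (red), each point 1 clone with its replicate number as the symbol, and bars showing mean ± SD (n = 3). In Fgf4 and Egr1 knockout replicate 1 sits with the non-targeted clones and replicates 2 and 3 sit lower, while in Fgfr1, Spry2, Spred1 and Dusp6 all knockout clones sit above all non-targeted ones.

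Fgf4 (ENSMUSG00000050917.5, plus strand of chromosome 7, 144847367 to 144865243) had 258, 147 and 105 CPM over knockout replicates 1 to 3. The non-targeted clones had 277, 236 and 277 CPM. The value of knockout replicate 1 was inside the range of the non-targeted clones, and replicates 2 and 3 lay well below it. The means were 170 ± 79.1 and 263 ± 23.7 CPM (SD, n = 3), a log2 fold change of -0.63 ± 0.29 (edgeR adjusted p = 0.226; DESeq2 adjusted p = 0.133). Without knockout replicate 1 the log2 fold change was -1.07 (edgeR adjusted p = 0.00187), and without knockout replicate 3 it was -0.38 (edgeR adjusted p = 0.424). The pluripotency medians given above, -0.11, -0.34 and -0.53, follow the same order over the knockout clones, and their part in the Fgf4 value was not tested. The 15 tested genes nearest to Fgf4, up to 10 on each side, had medians of 0.03, 0.06 and 0.25 in the knockout clones, none of them below 0.

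The gene whose profile over the 6 libraries was closest to that of Fgf4, of 8693 searched, was Sall1, a zinc finger transcription factor. It had 236, 139 and 101 CPM over knockout replicates 1 to 3 and 266, 231 and 266 CPM among the non-targeted. The mean absolute difference between the 2 centred log2 profiles was 0.023. Next were Ak7, an adenylate kinase, at 0.038 and Sema6c, a semaphorin, at 0.039.

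Fgfr1 (ENSMUSG00000031565.18, plus strand of chromosome 8, 25513654 to 25575718), the receptor on which FGF4 chiefly acts in these cells, had 134, 163 and 211 CPM over knockout replicates 1 to 3. The non-targeted clones had 113, 117 and 124 CPM. The groups did not overlap, and replicate 3 was the highest. Its log2 fold change was 0.52 ± 0.16 (edgeR adjusted p = 0.128), and the DESeq2 adjusted p was 0.0511. It passed when genes without a count were dropped before DESeq2 was run (DESeq2 adjusted p = 0.0494), an alternative added after seeing the data. Without knockout replicate 3 the log2 fold change was 0.33. Fgfr1 is also made by fibroblasts, and its order over the knockout clones was that of the fibroblast marker medians, 0.61, 0.70 and 1.90. The summed level of these markers had another order, with replicate 2 the lowest knockout clone. The medians of primitive endoderm markers, given below, also had the order of Fgfr1. The part of both lists in the Fgfr1 value was not tested.

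Fgfr2, the receptor used by primitive endoderm and trophoblast as well, needs care because of how it was counted. Its row (ENSMUSG00000030849.18, minus strand of chromosome 7) runs from 130162451 to 133123350, a body of 2960900 bases, where the RefSeq gene spans 104358 bases from 130162451 to 130266808. Inside that body lie 35 other genes on the same strand, among them Ate1 and Oat, which are listed at 0 in all 6 libraries. Together with 1 more gene at its edge they cover 27.65% of the body. Reads in the remainder, far beyond the receptor gene, count for Fgfr2. The row had 108, 125 and 129 CPM over knockout replicates 1 to 3 and 96.8, 109 and 92.9 CPM among the non-targeted. Knockout replicate 1 lay just under non-targeted replicate 2, and the other knockout clones lay above all non-targeted ones. The log2 fold change was 0.28 ± 0.10 (edgeR adjusted p = 0.157; DESeq2 adjusted p = 0.162). How much of it comes from the receptor was not tested. Of 13 tested primitive endoderm markers DESeq2 called 5 as higher, where it called 5.5% of all genes as higher. Gata4, Gata6 and Sox7 were tested, but so were matrix genes such as Col4a1, Lama1 and Sparc, the last also a fibroblast marker. Sox17, Foxa2, Hnf4a and Afp were below the filter, and Ttr had no reads. The list medians were 0.49, 0.50 and 0.97 over the knockout clones and 0.13, -0.13 and -0.16 over the non-targeted clones. Of 11 tested trophoblast markers DESeq2 called 2 as higher, with medians of -0.01, 0.85 and 0.35 against -0.09, 0.04 and 0.05. The fibroblast and primitive endoderm medians both have the order of Fgfr2 over the knockout clones, and the summed fibroblast level does not. The part of the fibroblast, primitive endoderm and trophoblast lists in the Fgfr2 value was not tested.

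Etv4 (ENSMUSG00000017724.14, minus strand of chromosome 11, 101769742 to 101785371), an ETS factor downstream of FGF, had 233, 179 and 172 CPM over knockout replicates 1 to 3. The non-targeted clones had 250, 231 and 282 CPM. Knockout replicate 1 lay 1 rank above the lowest non-targeted clone, and replicates 2 and 3 lay below all of them. Its log2 fold change was -0.39 ± 0.13 (edgeR adjusted p = 0.148; DESeq2 adjusted p = 0.0970).

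Etv5 (ENSMUSG00000013089.15, minus strand of chromosome 16, 22381309 to 22439719), the closest relative of Etv4 among the 10 genes, had 275, 300 and 230 CPM over the knockouts and 270, 278 and 277 CPM among the non-targeted. The knockout clones lay on both sides of the narrow non-targeted range. The log2 fold change was -0.04 ± 0.10, with a 95% interval from -0.27 to 0.20 (edgeR adjusted p = 0.846), and its sign turned without knockout replicate 3 (0.06).

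Egr1 (ENSMUSG00000038418.7, plus strand of chromosome 18, 34859823 to 34864984), an immediate-early zinc finger factor that reports recent ERK activity, had 300, 187 and 213 CPM over knockout replicates 1 to 3. The non-targeted clones had 296, 282 and 300 CPM. As for Fgf4, replicate 1 stood with the non-targeted clones and replicates 2 and 3 stood below them, though here replicate 2 was the lowest. For Egr1 the log2 fold change was -0.33 ± 0.16 (edgeR adjusted p = 0.254; DESeq2 adjusted p = 0.250). It was -0.55 without knockout replicate 1 and -0.18 without knockout replicate 2. The closest profiles to Egr1 were those of Shfm1, a subunit of the proteasome lid (mean absolute difference 0.031), the kinesin Kif16b (0.043) and the actin-binding Tmsb4x (0.043).

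Among the inhibitors, Spred1 (ENSMUSG00000027351.14, plus strand of chromosome 2, 117121374 to 117182279), which holds back RAS together with neurofibromin, was the only one of the 10 genes called by DESeq2. It had 167, 177 and 194 CPM over knockout replicates 1 to 3 and 137, 139 and 120 CPM among the non-targeted. The groups did not overlap, and replicate 1 lay above the non-targeted range like the other knockout clones. The means were 179 ± 13.3 and 132 ± 10.4 CPM (SD, n = 3), which is 0.44 ± 0.09 on the log2 scale (DESeq2 adjusted p = 0.0106; edgeR adjusted p = 0.106). The DESeq2 call held when clone 14 of the knockouts (adjusted p = 0.000122) or clone 51 of the non-targeted group (0.0434) was left out. Leaving out knockout clone 30 (0.0764) or 33 (0.105), or non-targeted clone 49 (0.0880) or 52 (0.165), ended it. The size changed little, from 0.37 to 0.48 over all alternatives. Spred1 also had the order of the fibroblast and primitive endoderm marker medians over the knockout clones (0.35, 0.42 and 0.55 for Spred1). The summed fibroblast level had another order, and the part of these lists in the Spred1 value was not tested.

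Spry2 (ENSMUSG00000022114.4, minus strand of chromosome 14, 105891949 to 105896819), a Sprouty protein that is phosphorylated on FGF stimulation, had 183, 230 and 164 CPM over the knockouts and 160, 125 and 149 CPM among the non-targeted. The groups did not overlap, with replicate 2 the highest and replicate 3 close to non-targeted replicate 1. The log2 fold change was 0.41 ± 0.15 (edgeR adjusted p = 0.156; DESeq2 adjusted p = 0.112), and it was 0.27 without knockout replicate 2. The 20 tested genes around Spry2 had medians of 0.15, 0.42 and 0.13 in knockout replicates 1 to 3, against 0.00, 0.05 and -0.06 in the non-targeted clones. The neighbours thus shared the order of Spry2 in replicates 2, 1 and 3, and their part in its value was not tested.

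Spry4 (ENSMUSG00000024427.6, minus strand of chromosome 18, 38586268 to 38601268), the other Sprouty followed here, had 338, 210 and 254 CPM over knockout replicates 1 to 3. The non-targeted clones had 291, 240 and 271 CPM. The knockout clones spread to both sides of the non-targeted range, with replicate 1 highest of all 6 and replicate 2 lowest. Its log2 fold change was 0.0018 ± 0.17, with a 95% interval from -0.39 to 0.39 (edgeR adjusted p = 0.996), and it was -0.21 without knockout replicate 1. The closest profiles were those of the fibronectin receptor subunit Itga5 (mean absolute difference 0.056), Dennd4a (0.059) and Osbpl10 (0.060).

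Dusp6 (ENSMUSG00000019960.7, plus strand of chromosome 10, 99263231 to 99267488), the cytoplasmic phosphatase of ERK, had 122, 148 and 243 CPM over knockout replicates 1 to 3. The non-targeted clones had 96.3, 112 and 109 CPM. The groups did not overlap, and replicate 3 stood far above the rest. The means were 171 ± 63.4 and 105 ± 8.19 CPM (SD, n = 3), a log2 fold change of 0.70 ± 0.24 (edgeR adjusted p = 0.146; DESeq2 adjusted p = 0.0532). Without knockout replicate 3 it was 0.36. As for Fgfr1, the order over the knockout clones was that of the fibroblast and primitive endoderm marker medians, and not that of the summed fibroblast level. The part of these lists in the Dusp6 value was not tested.

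**Figure D2:**
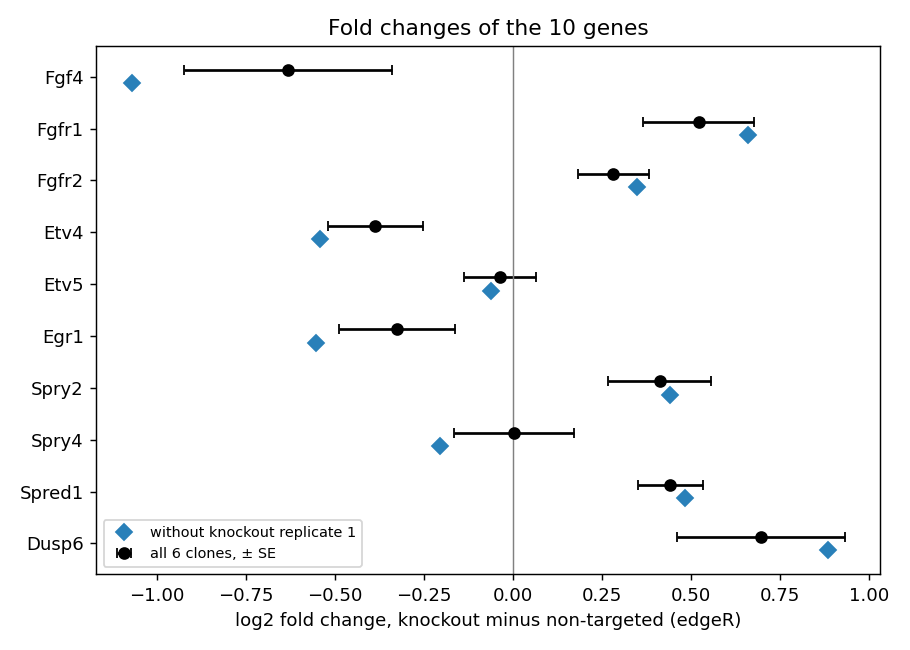
Log2 fold change, knockout minus non-targeted, of the 10 genes: black points with bars are edgeR values ± SE over all 6 clones, and blue diamonds the edgeR values without knockout replicate 1. Fgf4, Etv4 and Egr1 lie left of 0 and move further left without that clone, from -0.63 to -1.07 for Fgf4, while Spred1 stays near 0.44 to 0.48.

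The number of the 10 genes called depended on knockout replicate 1. Without it edgeR called 7 of the 10, with 4 higher (Fgfr1, Fgfr2, Spred1 and Dusp6) and 3 lower (Fgf4, Etv4 and Egr1). Over all tested genes that comparison called 15.1% as higher and 14% as lower. The log2 fold changes were 0.66, 0.35, 0.48 and 0.88 for the 4 that rose and -1.07, -0.54 and -0.55 for the 3 that fell, with edgeR adjusted p between 0.00187 and 0.0218. Spry2 (0.44, edgeR adjusted p = 0.0570), Etv5 and Spry4 did not pass. DESeq2 without the same clone called these 7 and Spry2 (DESeq2 adjusted p = 0.0290). These counts rest on 2 knockout clones.

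**Figure D3:**
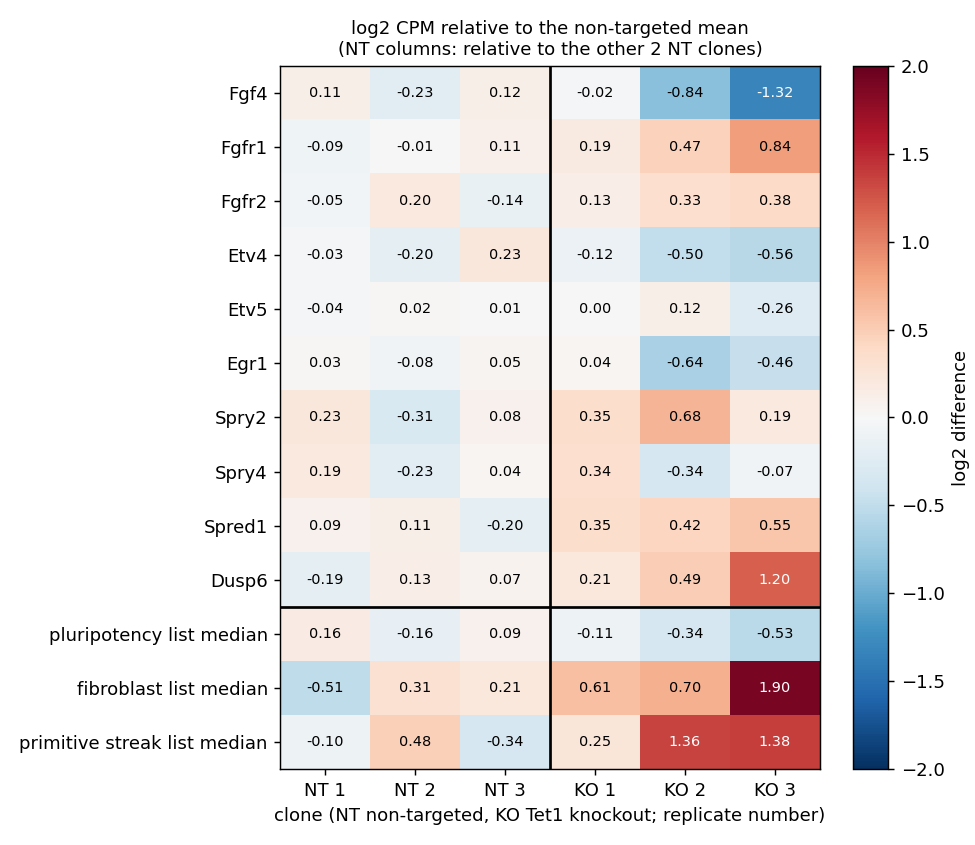
Log2 CPM of the 10 genes in each clone relative to the non-targeted mean (for a non-targeted clone, relative to the other 2), with the medians of 3 marker lists below the line. Knockout replicate 1 is near 0 for Fgf4 (-0.02), Egr1 (0.04) and Etv5 (0.00), and replicate 3 is at 1.2 for Dusp6, 0.84 for Fgfr1 and 1.90 for the fibroblast list.

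The rest of the pathway was described with 9 lists, which hold 135 tested genes besides these 10. In DESeq2 26 of the 135 rose and 1 fell, and edgeR called 0, against 5.5% higher and 3.15% lower over all genes in DESeq2. The counts and medians of single lists given below include any of the 10 genes that are on the list. DESeq2 repeated all 27 calls when knockout clone 14 was left out, 11 when clone 30 was and 6 when clone 33 was. It repeated 5, 20 and 5 of them when non-targeted clone 49, 51 or 52 was left out. The 5 genes called in each of these 6 comparisons were Epha2, Rps6ka3, Fgfbp1, Dusp8 and Cyr61, which rose. Of the other calls named below, Dusp4 was kept in 4 of the 6 and the others in 1 to 3. The fibroblast list, with 27 of 29 members above 0, moved in the same direction, and its part in these counts was not tested.

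Of 14 tested FGF ligands 9 lay above 0 (median log2 fold change 0.51), and 0 were called by DESeq2 or edgeR, with 5 above 0 and 0 below at an unadjusted edgeR p under 0.05. Fgf5, a ligand of the post-implantation epiblast, had 3.07, 34.4 and 44.1 CPM over knockout replicates 1 to 3 and 0.888, 7.17 and 1.67 CPM among the non-targeted (log2 fold change 3.03 ± 1.01; edgeR adjusted p = 0.144; DESeq2 adjusted p = 0.0875). Replicates 2 and 3, in which Fgf4 was lower, were those in which Fgf5 was high. Fgf8, a ligand of the primitive streak named after its values were seen, had 0.920, 18.3 and 13.01 CPM against 1.05, 3.74 and 1.182 CPM. The primitive streak marker T, likewise named after its values were seen, had 1.92, 48.9 and 22.9 CPM against 1.61, 5.12 and 1.182 CPM. The 9 tested markers of that list had medians of 0.25, 1.36 and 1.38 in knockout replicates 1 to 3. In the non-targeted clones these medians were -0.10, 0.48 and -0.34, a range that holds knockout replicate 1. Fgf14, an intracellular FGF homologue of neurons, had only 67 reads over the 6 libraries. It had 1.38, 1.08 and 1.22 CPM over the knockouts and 0.242, 0.624 and 0.417 CPM among the non-targeted. Its log2 fold change was 1.47 ± 0.40 (edgeR adjusted p = 0.122), and DESeq2 gave it no adjusted p.

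Among 8 tested receptors and cofactors, DESeq2 called only Fgfbp1 as higher and none as lower (median log2 fold change 0.28). Fgfbp1, a carrier that releases FGFs from the matrix, had 5.44, 25.9 and 26.7 CPM over the knockouts and 2.74, 4.80 and 2.99 CPM among the non-targeted (DESeq2 log2 fold change 2.45 ± 0.51, adjusted p = 0.000341). Heparan sulfate genes, which make the coreceptor, had 6 of 20 called as higher in DESeq2 and 0 as lower (median 0.33). Sdc2, a syndecan core protein, rose from 7.995 ± 1.74 to 16.0 ± 3.56 CPM (SD, n = 3), a DESeq2 log2 change of 0.99 (adjusted p = 0.00661). The glypican Gpc6 rose by 1.54 (DESeq2 adjusted p = 0.0122) and Ndst1, an enzyme that sulfates the chain, by 0.53 (DESeq2 adjusted p = 0.0270).

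The RAS-ERK cascade itself had a median log2 fold change of -0.05 over 25 genes, with 3 called as higher and 0 as lower in DESeq2. Rps6ka3, a kinase that ERK activates, rose from 24.6 ± 1.64 to 48.5 ± 10.04 CPM (SD, n = 3), a DESeq2 log2 change of 0.97 (adjusted p = 0.000116). The RAS exchange factor Sos2 rose by 0.83 (DESeq2 adjusted p = 0.00886) and the phosphatase Ptpn11, which couples receptors to RAS, by 0.43 (DESeq2 adjusted p = 0.0467).

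Several genes of these lists lie on chromosome 6, where stretches of genes were lower in knockout replicates 2 and 3. Besides Fgf4, Etv4 and Egr1, 14 genes of the 9 lists fell in edgeR without knockout replicate 1. Of the 7 tested list genes on chromosome 6, 5 were among these falls, Braf, Etv6 and Dusp16 included, and 1 rose. Dusp16, a phosphatase of stress kinases named for its position, stood at 0.27, -1.23 and -0.78 on the log2 scale against the non-targeted mean in knockout replicates 1 to 3. Its neighbouring genes had medians of -0.04, -1.39 and -1.50. None of the 10 genes lies on chromosome 6, and the medians of their neighbours lay between -0.19 and 0.25 in every knockout clone, apart from 0.42 around Spry2 in replicate 2.

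The inhibitors that act at the level of RAS or the receptor had 15 tested genes, Spry2, Spry4 and Spred1 included (median 0.04). DESeq2 called Spred1, Errfi1 and Lrig1 as higher and 0 as lower. Errfi1, an inhibitor of the EGF receptor, rose by 0.71 (DESeq2 adjusted p = 0.0222) and Lrig1, which speeds the loss of receptors, by 0.59 (DESeq2 adjusted p = 0.0467). Spry1 and Spred2, the relatives of the genes followed here, had log2 fold changes of 0.03 ± 0.22 and 0.07 ± 0.08, and were named after their values were seen. Of 11 dual-specificity phosphatases, 9 lay above 0 and 4 rose in DESeq2 (median 0.70, that of Dusp6 itself). Dusp8 rose from 4.32 ± 0.673 to 13.7 ± 5.41 CPM (SD, n = 3), a DESeq2 log2 change of 1.65 (adjusted p = 0.000407). Dusp4, a nuclear phosphatase of ERK, rose from 15.5 ± 1.15 to 31.2 ± 9.89 CPM (1.004, DESeq2 adjusted p = 0.00287). Dusp10, which prefers the stress kinases, rose by 1.87 (DESeq2 adjusted p = 0.00827). Medians of this list were 0.23, 0.50 and 1.2 in knockout replicates 1 to 3, beside fibroblast medians of 0.61, 0.70 and 1.90. The primitive endoderm medians had this order too, and the summed fibroblast level had another. In the non-targeted clones the medians of this list were -0.19, 0.17 and 0.07.

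Of 14 ETS factors, Ets1 was the only call, higher by 1.73 in DESeq2 (adjusted p = 0.00794), with 4.60, 14.9 and 18.3 CPM over the knockouts and 2.99, 4.80 and 3.55 CPM among the non-targeted. The list median was -0.16, with 9 of 14 below 0. Egr1 lay below 0 in a list of immediate-early genes where 23 of 26 lay above 0 (median 0.44), and 6 rose and 0 fell in DESeq2. Cyr61, a matricellular protein, rose from 147 ± 2.53 to 278 ± 77.3 CPM (SD, n = 3), a DESeq2 log2 change of 0.91 (adjusted p = 0.00127). The small Maf protein Maff rose by 0.64 (DESeq2 adjusted p = 0.00761) and Klf6 by 1.08 (DESeq2 adjusted p = 0.00827). Fos, induced together with Egr1 in many cells and named after its values were seen, had a log2 fold change of 0.05 ± 0.11. List medians were 0.03, 0.31 and 0.89 in knockout replicates 1 to 3. This was the order of the fibroblast and primitive endoderm medians, and not that of the summed fibroblast level. In the non-targeted clones they were -0.16, 0.06 and 0.03, a range that holds knockout replicate 1.

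Of 13 other ERK-responsive targets, 3 rose and 1 fell in DESeq2 (median 0.47). Epha2, an ephrin receptor that is also a marker of early epiblast, had 306, 311 and 319 CPM over the knockouts and 215, 204 and 220 CPM among the non-targeted. The groups were far apart and each narrow, replicate 1 included (DESeq2 log2 fold change 0.54 ± 0.09, adjusted p = 3.15e-06; edgeR adjusted p = 0.0916). Hmga2, a chromatin protein, rose by 1.08 (DESeq2 adjusted p = 0.00723). The fall was of Epha4, another ephrin receptor, named after its values were seen, from 62.3 ± 7.65 to 36.1 ± 12.2 CPM (SD, n = 3), a DESeq2 log2 change of -0.80 (adjusted p = 0.0290).

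**Figure D4:**
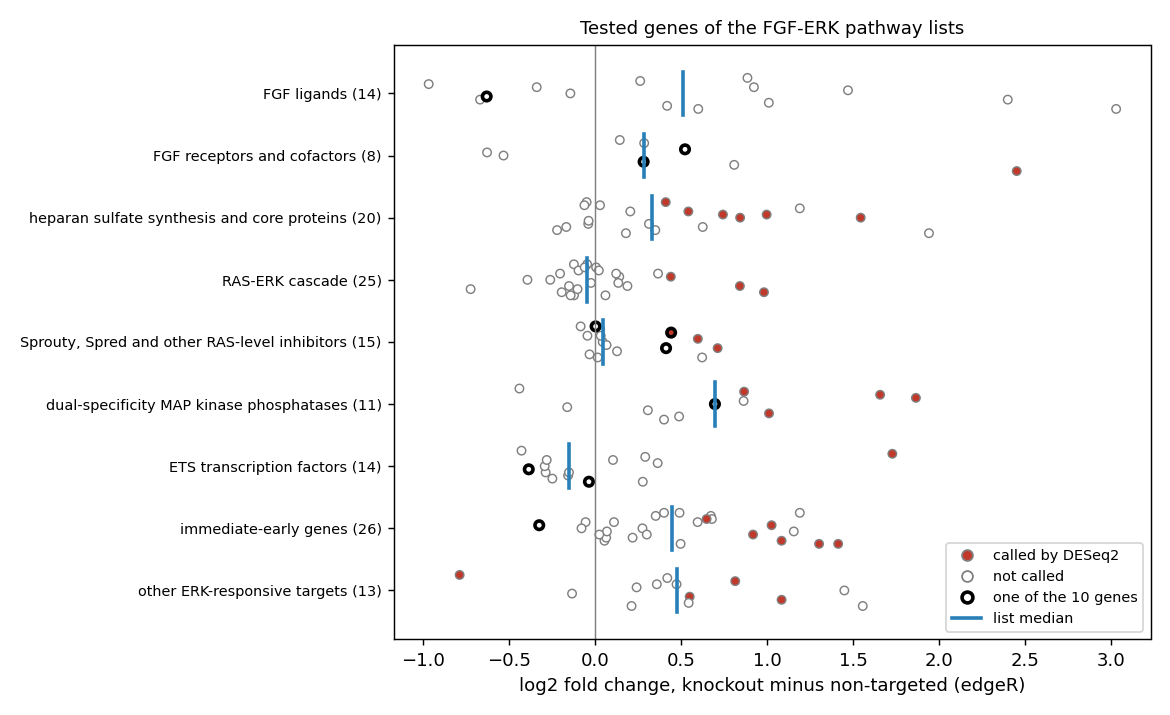
Log2 fold change (edgeR, knockout minus non-targeted) of every tested gene of the 9 pathway lists, the number of genes in brackets. Filled points are DESeq2 calls, heavy outlines mark the 10 genes and blue bars list medians, which run from -0.16 for ETS factors to 0.70 for dual-specificity phosphatases.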

How the data were processed

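RNA of 6 clones was analysed from the authors' deposited table of whole-number read counts per gene, with no normalization. Per the file headers, reads were counted with featureCounts 1.6.2 over whole gene bodies, introns included, on the reverse strand, with GENCODE M15 (GRCm38.p5). Reads shared by overlapping genes were left out, so genes nested in a longer gene on the same strand are listed at 0. The submitters' processing notes name HISAT2 2.1.0, featureCounts 1.5.3 and DESeq2 1.18.1.

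Here genes were kept with filterByExpr (minimum count 10, minimum total 15), scaled with TMM and tested with edgeR 4.0.16 in R 4.3.3, group as the only term, at a Benjamini-Hochberg adjusted p of 0.05. DESeq2 1.42.0 and limma 3.58.1 were alternatives. The edgeR step was tested on simulated data. Relative log2 levels were set against the non-targeted mean. Levels are not compared between genes, as counts are not per length. Members and lists were chosen with earlier results of these data known. Named genes are the 10 genes, up to 3 DESeq2 calls per list (or the 2 with the smallest edgeR p where none was called), and the 3 closest profiles to Fgf4, Spry4 and Egr1 among named genes of at least 10 CPM. Of the genes this rule takes, 1 is not reported here.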

Additional observations from a re-analysis of the deposited data

How the results depend on the processing

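Of 608 log2 fold changes of 32 followed genes under other settings, 597 kept their sign. The 11 that turned belonged to Spry4 and Etv5. Spry4 was -0.01 in DESeq2, in DESeq2 with uncounted genes dropped and with no filter on low counts, -0.02 in limma voom and with the replicate block, -0.07 in edgeR and -0.08 in DESeq2 without non-targeted replicate 2, and between -0.21 (without knockout replicate 1, both tools) and 0.15 when 1 library was left out. Etv5 was 0.06 in edgeR and 0.05 in DESeq2 without knockout replicate 3, and as low as -0.12 in edgeR with another library left out. Calls depended on the tool. Over all genes edgeR called 0 and limma voom 1, with 159 by edgeR with no filter on low counts, 1232 by DESeq2 and 1247 by DESeq2 with uncounted genes dropped. With 1 library left out the count ran from 0 to 4404 in edgeR, and in DESeq2 it was 4106, 306 and 265 without knockout replicates 1 to 3 and 183, 763 and 128 without non-targeted replicates 1 to 3. Of the 10 genes, 0 were called in edgeR, 1 in DESeq2, 2 in DESeq2 with uncounted genes dropped (Fgfr1 was added), and 0 to 7 in edgeR and 0 to 8 in DESeq2 with 1 library left out, both maxima without knockout replicate 1. Of the other list genes, 0 were called in edgeR, 5 with no filter, 27 in DESeq2 either way, 0 to 63 in edgeR with 1 library left out, and in the same order of libraries 60, 11, 6, 5, 23 and 5 in DESeq2. The DESeq2 runs that leave out a library or drop uncounted genes were added after seeing the data.

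Replicate numbers are shared by both groups. In the paired fit with the replicate block edgeR called 3 genes over all and 0 of the 10. Deviations of libraries with the same number correlated at 0.458, 0.109 and -0.024, and the labels do not say that a number marks a shared origin, so the numbers were not taken as pairs. Upper-quartile and DESeq2 scaling in edgeR called 0 genes.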
